A study of Mus musculus with 8 samples.

Results

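Cluster 2 is one of 12 clusters of cells in the cell table deposited with a single-cell RNA study of mouse helper T cells. It was taken as all cells carrying that cluster number and at least 500 detected genes, which gave 9869 of 101688 cells. Il17a, Il17f and Il22, the signature cytokine genes of Th17 and Th22 cells, were its 3 leading genes. Another 59 cells with the number had fewer genes and were left out. The 57 members with 500 to 549 genes had a median of 1063 UMIs (unique molecular identifiers, each standing for 1 captured mRNA), and the 38 cells with 450 to 499 genes, just outside, had a median of 957.

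The study compared CD4+ T cells from the spleens of 10-week-old female mice, of the genotype Gpr65_WT (WT) or Gpr65_KO (KO), with GPR65 given as the strain. All cultures received 20 ng/ml each of IL-1b and IL-23 and were harvested at day 3. Th17 cultures also received 25 ng/ml of IL-6, and Th22 cultures 40 ng/ml of IL-6 plus 400 nM of FICZ, which activates the aryl hydrocarbon receptor (AHR), so 2 things distinguish the cultures. Each of the 4 groups had 2 libraries, made with the 10x 3' kit, which reads the 3' end of each mRNA. Which part of Gpr65 the knockout removes, and how the animals' backgrounds relate, is not given in the labels. Libraries carry the number 1 or 2 with no animal or culture named, and p-values therefore reflect only how far these libraries spread, which could be technical.

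Th17 cells are CD4+ T cells that make IL-17A and IL-17F, cytokines that recruit neutrophils and act on epithelium, and are driven by the cytokines IL-6, IL-1 and IL-23. IL-22, of the IL-10 family, acts on epithelial cells, and AHR ligands raise its production. Gpr65 encodes a receptor that senses extracellular protons and signals through cAMP.

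The start regions of the 3 cytokine genes that lead the cluster are shown because these genes define it. Il17a lies on the plus strand of chromosome 1, 20730905 to 20734496 (ENSMUSG00000025929), Il17f on the minus strand of chromosome 1, 20777146 to 20790617 (ENSMUSG00000041872) and Il22 on the plus strand of chromosome 10, 118204942 to 118210047 (ENSMUSG00000074695), all in mm10 coordinates from GENCODE. Il17a and Il17f are neighbours, with 42.65 kb between them. The promoter sequences, from RefSeq on GRCm38.p6, run from 250 bases before to 50 after the start, in the gene's own direction. The RefSeq starts of Il17f and Il22 lie inside the GENCODE gene spans. Capitals mark matches to AGGTCA, the half-site of nuclear receptors, or to TGANTCA, the AP-1 motif, searched on both strands.
Il17a: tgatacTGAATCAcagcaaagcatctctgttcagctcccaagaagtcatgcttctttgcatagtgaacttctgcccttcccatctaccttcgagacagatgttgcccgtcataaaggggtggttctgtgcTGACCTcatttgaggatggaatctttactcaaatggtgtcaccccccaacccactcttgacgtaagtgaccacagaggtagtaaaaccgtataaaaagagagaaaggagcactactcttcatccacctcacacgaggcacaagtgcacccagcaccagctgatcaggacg
Il17f: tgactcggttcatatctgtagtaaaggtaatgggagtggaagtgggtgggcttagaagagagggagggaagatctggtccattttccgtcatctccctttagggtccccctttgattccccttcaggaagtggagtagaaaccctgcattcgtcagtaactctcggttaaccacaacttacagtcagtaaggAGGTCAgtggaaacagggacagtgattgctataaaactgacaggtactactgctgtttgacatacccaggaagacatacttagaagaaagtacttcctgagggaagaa
Il22: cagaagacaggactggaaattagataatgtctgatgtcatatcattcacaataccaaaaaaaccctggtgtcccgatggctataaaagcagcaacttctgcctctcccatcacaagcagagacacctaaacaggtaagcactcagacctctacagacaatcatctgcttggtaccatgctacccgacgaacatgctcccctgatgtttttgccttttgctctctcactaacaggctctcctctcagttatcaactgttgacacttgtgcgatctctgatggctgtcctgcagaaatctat
The Il17a window is chr1:20730655-20730954 (plus strand), the Il17f window chr1:20784221-20784520 (minus strand) and the Il22 window chr10:118204714-118205013 (plus strand). The Il17a window held AGGTCA on its opposite strand and 1 AP-1 match, and the Il17f window held AGGTCA. The Il22 window held neither motif. AGGTCA occurred in 16.3% of 32851 promoters of this length and in 5 of the 25 leading genes with a promoter entry. The AP-1 motif occurred in 7.81% of all promoters and in 4 of the 25. The STAT motif TTCNNNGAA (8.3% and 4 of 25) and the AHR core GCGTG (32.4% and 11 of 25) had no match in the windows shown. A leading gene was counted if any of its promoters matched, so its share is not of the same unit as that over promoters. A match describes the letters only.

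The libraries held 774 to 1957 cells of the cluster and 3167683 to 7120827 UMIs from them. These cells made up 11.9% and 11.4% of kept cells in WT Th17 and 12.9% and 13.0% in WT Th22. The share was 7.03% and 7.60% in KO Th17 and 7.23% and 7.23% in KO Th22, below every WT library. The cause of this difference was not tested, and comparisons of KO with WT inside the cluster cover only the cells placed in it. The median depth of its cells was 2862 to 4792 UMIs per cell by library, and was above that of the other cells in all 8 libraries (WT Th17 library 1: 3147.5 against 2412). Cells with a deposited G2/M score above 0 made up 5.98% to 9.04% of the cluster and 9.20% to 17% of the other cells, and were the smaller share in the cluster in every library. Among all kept cells, 1199 barcodes occurred in more than 1 library. Within cluster 2, 8 did. In KO Th17 library 1, 38.8% of the cluster's cells had an S-phase score above 0, against 25.9% to 32.4% in the other 7 libraries. The cells outside the cluster were likewise highest in that library, at 44.7% against 31.1% to 36.9% in the other 7.

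Levels of the marker genes went with the cluster's name, a population with Il17a, Il17f and Il22 RNA, although at matched depth most of its cells showed no UMI of these cytokines. The clusters were made from these cells' own RNA, so every level set against other cells is a description with no test. Levels are edgeR's CPM, a gene's UMIs divided by the TMM-scaled sum of UMIs of the cells in a library, times a fixed constant. Il17a read 233 and 233 CPM in WT Th17, 95 and 120.2 in KO Th17, 116 and 91.1 in WT Th22, and 47.4 and 56.5 in KO Th22. Outside the cluster Il17a read 0.784 to 6.78 CPM. Every cluster 2 library was above every library of the other cells, and within the cluster the highest values were those of WT Th17 and the lowest those of KO Th22. A summed level cannot tell fewer cells with the RNA from less RNA per cell.

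Il17f stood at 284 and 229 CPM in WT Th17 against 60.6 and 114 in KO Th17, and at 165 and 149.9 in WT Th22 against 59.9 and 118 in KO Th22. The lower of each KO pair was library 1, and KO Th17 and KO Th22 overlapped. Il22 read 61.8 and 56.8 CPM in WT Th17, 66 and 86.4 in KO Th17, 171 and 149 in WT Th22, and 132 and 254 in KO Th22. All Th22 libraries lay above all Th17 libraries for Il22, and KO Th22 held both the lowest and the highest value of the 4. The levels of Il24 were 217 and 223 CPM in WT Th17, 65.6 and 49.8 in WT Th22, 82.9 and 88.5 in KO Th17, and 22.7 and 30.6 in KO Th22. Il24, a cytokine of the IL-20 subfamily, was highest in WT Th17. The median log2 ratio of cluster 2 to the other cells over the 8 libraries, at 1 CPM added, was 4.98 (4.65 to 5.44) for Il17a, 4.30 (4.10 to 4.57) for Il17f, 4.18 (3.90 to 4.46) for Il22 and 3.70 (3.11 to 4.16) for Il24, with the lowest and highest library in brackets. These genes helped make the cluster, so their levels in KO and WT, or in Th22 and Th17, are likewise given without a test.

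The other markers were 2 interferon-induced transmembrane protein genes and Ebf1, a transcription factor known from B cells. Ifitm1 read 569 and 462 CPM in WT Th17, 53.3 and 61.2 in KO Th17, 2022 and 2163 in WT Th22, and 854 and 817 in KO Th22. Ifitm1 was lowest in KO Th17, where it was below the level of the other cells in WT Th17 libraries. Ifitm3 stood at 286 and 229 CPM in WT Th17 against 74.4 and 86.7 in KO Th17, and at 803 and 734 in WT Th22 against 351 and 383 in KO Th22. The levels of Ebf1 were 76.1 and 80.7 CPM in WT Th17, 56.3 and 53.7 in WT Th22, 67.7 and 114 in KO Th17, and 45.7 and 72.1 in KO Th22. In each culture the KO pair of Ebf1 spanned the WT pair, and its median log2 ratio to the other cells was 2.55 (2.51 to 2.96).

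**Figure D1:**
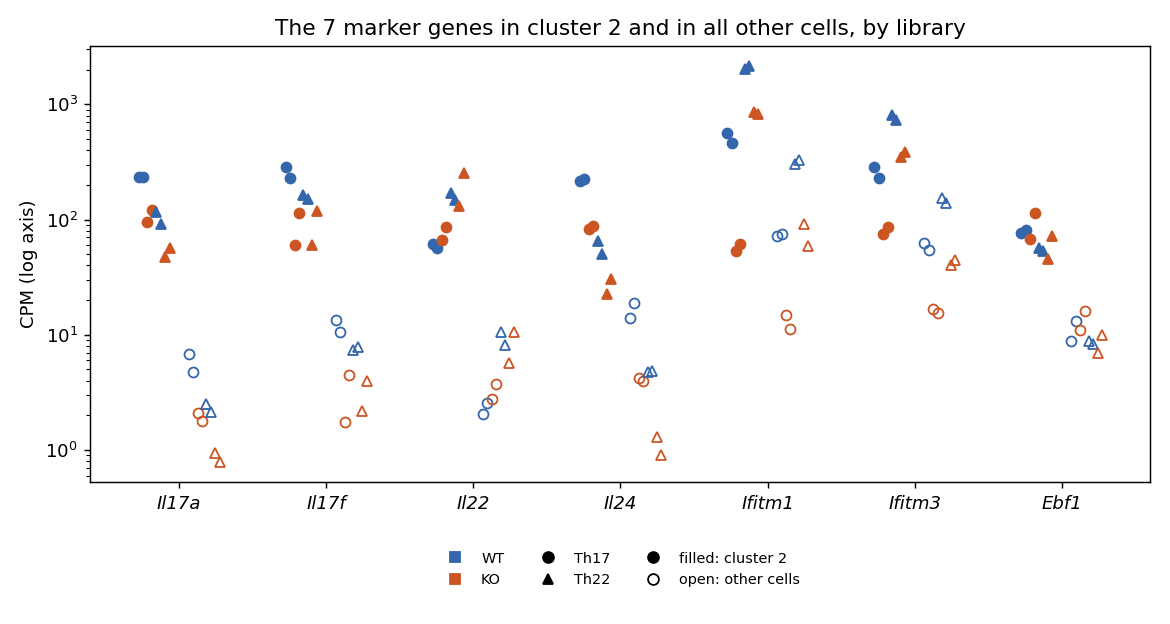
Level of the 7 marker genes in cluster 2 (filled) and in all other cells (open), as CPM on a log axis, 1 point per library, with WT in blue, KO in orange, Th17 as circles and Th22 as triangles. For Il17a, Il17f, Il22, Il24 and Ebf1 the filled points all lie above the open ones. The KO Th17 points in the cluster lie among the open points for Ifitm1, at 53.3 and 61.2 CPM, and for Ifitm3, at 74.4 and 86.7 CPM.

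A set of 30 leading genes was taken by the median log2 ratio over the 8 libraries, among genes of at least 10 CPM that were above the other cells in all 8. The genes in it ran from secreted factors and matrix proteins to surface receptors. The last of them, Dthd1, had a ratio of 1.26 and the next gene, Cysltr2, 1.22. Among 6328 genes at 10 CPM or more, 981 were higher in the cluster in all 8 libraries and 1306 lower, and the median log2 ratio of all was -0.01. Of these, 45 had a median ratio of at least 2-fold and were higher in all 8, and 19 of them were over 4-fold.

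Genes for secreted factors and matrix proteins formed one group of the leading genes. Timp1, an inhibitor of metalloproteinases, had a median log2 ratio of 2.73 (2.34 to 2.98), Inhba, the activin A subunit, 2.62 (2.30 to 3.06), and Hamp, which encodes the iron hormone hepcidin, 2.61 (2.07 to 2.94). The small leucine-rich proteoglycan genes Dcn and Lum, neighbours 47.0 kb apart on chromosome 10, had 2.57 (1.80 to 2.80) and 2.56 (2.33 to 2.66). Pdgfa, a growth factor, had 2.41 (2.09 to 2.68). Timp1 read 342 and 503 CPM in WT Th17, 489 and 506 in KO Th17, 302 and 347 in WT Th22, and 677 and 490.0 in KO Th22. Outside the cluster Timp1 read 42.6 to 101 CPM. Hamp stood at 73.4 and 94.6 CPM in WT Th17 against 98.1 and 40 in KO Th17, and at 12.4 and 7.31 in WT Th22 against 16.4 and 10.8 in KO Th22. All Hamp values in Th22 lay below all those in Th17.

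The remaining genes were of mixed kinds, with receptors and enzymes among them. Il1r2, the decoy receptor of IL-1, had a median log2 ratio of 1.79 (1.68 to 2.30). Fcmr, the Fc receptor of IgM, had 1.49 (1.19 to 1.80), and it lies 1.28 kb from Il24, so that reads near that border could be assigned to either gene. Timd2 had 2.72 (2.51 to 3.18) and Ermn, a cytoskeletal protein known from oligodendrocytes, 2.93 (2.79 to 3.29). Furin, the proprotein convertase, had 2.05 (1.70 to 2.09), Slc15a3, a peptide transporter, 1.65 (1.15 to 2.07), and Ifitm2 1.47 (0.81 to 1.78). The other 10 were Ppp1r14c, Crispld2, Ccdc71l, Nebl, Prr29, H2-Q10, Basp1, Ttc39c, Serpinf1 and Dthd1, with medians from 1.26 to 2.53. Ppp1r14c stood at 32.2 and 23 CPM in WT Th17 against 7.05 and 13.7 in KO Th17, and at 35.3 and 27.2 in WT Th22 against 9.29 and 22.3 in KO Th22. Ppp1r14c, an inhibitor of protein phosphatase 1, was lower in each KO library than in both WT libraries of its culture. Fcmr read 34.2 and 33.2 CPM in WT Th17, 16.6 and 16.9 in KO Th17, 14 and 11.5 in WT Th22, and 4.89 and 8.08 in KO Th22. Fcmr was highest in WT Th17 and lowest in KO Th22, and KO Th17 and WT Th22 lay between them. The levels of Inhba were 105 and 85.5 CPM in WT Th17, 51.1 and 39.3 in WT Th22, 122 and 149.7 in KO Th17, and 72.3 and 56.1 in KO Th22. For Inhba every Th17 library was above every Th22 library. Serpinf1 read 134 and 117 CPM in WT Th17, 148 and 313 in KO Th17, 134 and 115 in WT Th22, and 107 and 246 in KO Th22. In both cultures Serpinf1 was higher in KO library 2 than in KO library 1 by more than the WT libraries differed. Ermn stood at 52.1 and 56.1 CPM in WT Th17 against 70.2 and 61.4 in KO Th17, and at 67 and 73.9 in WT Th22 against 62.8 and 47.4 in KO Th22. For Ermn, KO lay above WT in Th17 and below it in Th22. The Ifitm genes, H2-Q10 and other multigene family members have near-identical copies among which reads could be split.

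**Figure D2:**
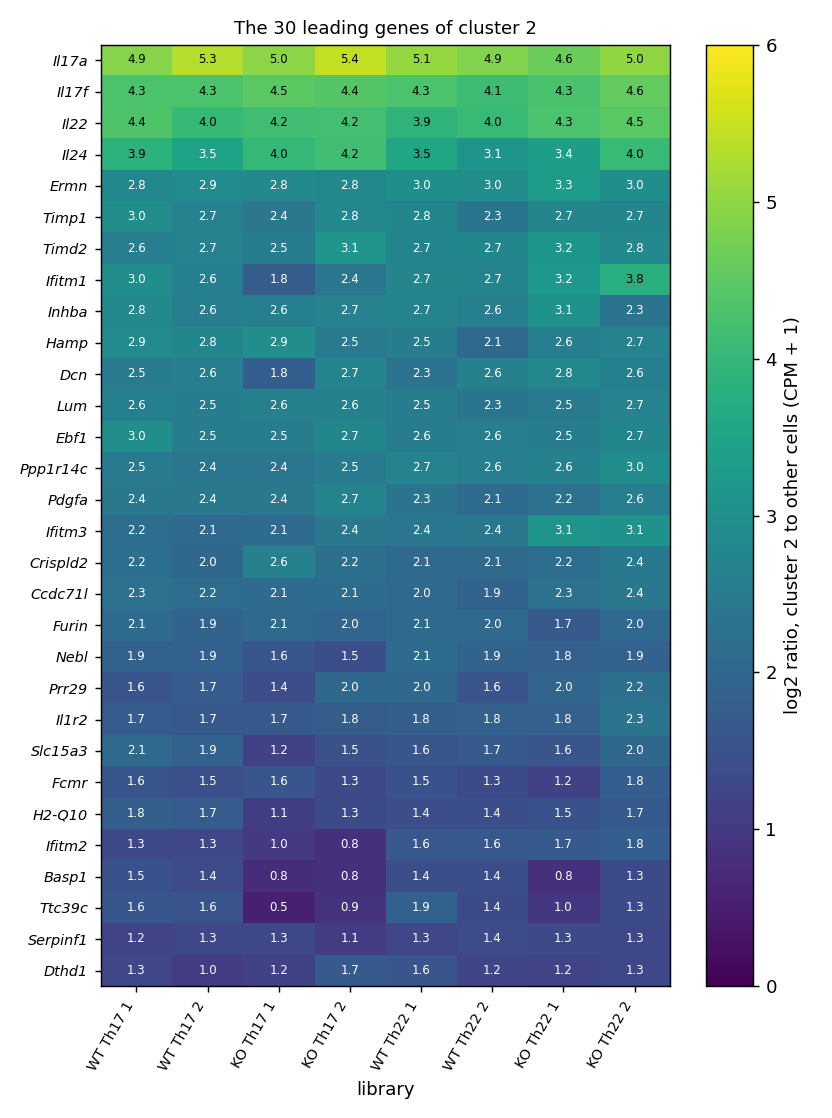
The 30 leading genes (rows) by library (columns), coloured and numbered by the log2 ratio of CPM + 1 in cluster 2 to that in all other cells of the library. Il17a, Il17f, Il22 and Il24 have the highest ratios in all 8 libraries, and every ratio shown is above 0.

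Cytotoxic and gamma-delta T cell genes were among the lowest in the cluster relative to all other cells together. Trdc, the constant region of the gamma-delta receptor, averaged 1.53 ± 0.860 CPM in it and 12.6 ± 4.26 outside (SD over 8 libraries). Gzmb, the granzyme B gene, averaged 63.6 ± 34.1 against 233 ± 92.9, and Klf2, a factor of resting T cells, 16.9 ± 7.65 against 54.3 ± 18.7. Before TMM scaling, Trdc averaged 382 CPM in cluster 7, but 1.11 in cluster 0, 1.92 in cluster 1 and 1.29 in cluster 4. Its mean in cluster 2 lay between those of clusters 4 and 1. Low Trdc therefore did not set cluster 2 apart from clusters 0, 1 and 4. Of 20 G2/M genes, 18 were lower in the cluster in all 8 libraries, as were 14 of 26 measured interferon-response genes. Of all 6328 genes at 10 CPM or more, 1306 were. Both lists were set against all other cells together, and not against the clusters most alike. Cd3e read 285 and 191 CPM in WT Th17, 189.8 and 237 in KO Th17, 447 and 383 in WT Th22, and 215 and 278 in KO Th22, so RNA of the T cell receptor complex was present throughout. Of 13 genes of that complex, 7 were lower in the cluster in all 8 libraries and 0 higher, with a median log2 ratio of -0.16. Cd4 stood at 127 and 128 CPM in WT Th17 against 77.5 and 105 in KO Th17, and at 121 and 137 in WT Th22 against 98 and 103 in KO Th22, close to the levels of the other cells, which ran from 88.6 to 125.

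Markers of other cell types differed by list in their levels. Of 11 B cell markers, 9 had a mean under 1 CPM in the cluster, and the list's sum was 71.6 to 138 CPM in the cluster against 39.7 to 61.4 outside. The leading gene Ebf1 and Ighm, the IgM heavy chain (20.3 to 33.1 CPM), were its other members. Of 7 measured stromal and endothelial markers 5 were under 1 CPM, although the leading gene Dcn belongs to that list, and its summed level was 23.1 to 47.7 CPM against 11.7 to 23.2 outside. Of 10 measured gamma-delta T cell markers 8 were under 1 CPM, of 8 NK and CD8 markers 6, and of 7 myeloid markers 6. The myeloid list summed to 126 to 176 CPM in the cluster against 115 to 140.4 outside, with Cst3, the widely expressed protease inhibitor cystatin C, at 126 to 174 CPM. Of 9 measured markers of innate lymphoid cells 2 were under 1 CPM, and that list summed to 262 to 432 CPM in the cluster against 373 to 610.2 outside. Its members Ltb (133 to 277 CPM) and Id2 (62.6 to 121 CPM) are also expressed by T cells, while Zbtb16 was at 0 in every library of the cluster. Ifng had 6 UMIs in WT Th22, 2 in KO Th17 and 0 in the other 2 groups. Il10 had 1 UMI and Foxp3 2 over all libraries of the cluster.

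Rora, a nuclear receptor of the Th17 program, read 39.2 to 56.1 CPM in the cluster against 19.1 to 28.8 in the other cells, and Il23r, the IL-23 receptor, 3.11 to 6.16 against 0.617 to 1.96. None of the cluster's libraries overlapped with the other cells for these genes. Maf was lower in the cluster than outside it in every library, for example 15.4 against 21.1 CPM in WT Th17 library 1. Ahr read 8.80 to 12.2 CPM and overlapped with the other cells. Of 20 core Th17 genes, 10 were higher in the cluster in all 8 libraries and 4 lower, beside 981 higher and 1306 lower of the 6328 genes at 10 CPM or more. The list holds 3 of the leading genes, which were taken for being higher. Of 15 genes of the IL-1 and NF-kB list, which holds 1 leading gene, 6 were higher in all 8 and 0 lower.

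Most UMIs of the cytokine genes came from this cluster. In each library it held 81.6% to 89.8% of all Il17a UMIs, 73.3% to 81.0% of Il17f, 69.8% to 84.2% of Il22 and 63.7% to 77% of Il24. Ermn followed with 43% to 62.9%. Over all genes the profiles most like that of cluster 2 were those of cluster 1 (Pearson r = 0.989 over 6311 genes, from the same libraries) and cluster 4 (r = 0.982). Il17a averaged 2.94 CPM in cluster 1 and 2.45 in cluster 4, before TMM scaling. The next highest mean after cluster 2 was that of cluster 11, a group of 539 cells, at 26.2 CPM with a range of 0 to 118 over libraries. Il22 averaged 26.7 CPM in cluster 4 (up to 76.2) and 52.8 in cluster 11 (up to 232), and both overlapped with the 58.4 to 237 CPM of cluster 2. Ifitm1 averaged 822 CPM in cluster 7 (238 to 1568) and 890.2 in cluster 2.

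A minority of the cluster's cells carried a UMI of a given cytokine gene at matched depth. After each cell was thinned to 1500 UMIs, which kept 9521 of its cells, Il17a was detected in 1.70% to 12.6% of cells by library, Il17f in 5.88% to 26.6% and Il22 in 3.25% to 10.4%. Without thinning the ranges were 4.0% to 18.3%, 10.9% to 38.2% and 4.82% to 16.1%. In cluster 0, the largest cluster, with a median of 2648 UMIs against 3778 in cluster 2, the thinned shares were 0.0407% to 0.356%, 0.0809% to 0.765% and 0% to 0.427%. Every cluster 2 share was above the highest of cluster 0. Il17a or Il17f was detected in 32.7% of thinned cells in WT Th17 library 1 (exact 95% interval 30.2% to 35.3%) and 6.93% in KO Th22 library 1 (5.23% to 8.96%), the highest and the lowest library. Il22 was found in 10.4% of cells in KO Th22 library 2 (8.56% to 12.4%), the highest, and 3.25% in WT Th17 library 1 (2.37% to 4.36%), the lowest. By library, 10.1% to 59.8% of cells had a UMI of none of the 7 markers, against 65.8% to 94.1% of other cells. Intervals cover counting error only, here and below.

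Il17 and Il22 transcripts were found in the same cells more often than in cells without the other. In WT Th22 library 1, 41.1% of the 151 cells with Il22 also had Il17a or Il17f (exact interval 33.1% to 49.4%), against 16.5% of the 1738 cells without Il22. The share was higher among Il22-detected cells in all 8 libraries, and lowest in KO Th22 library 1, at 15.8% against 6.21%. Il17f was found in 51.5% of cells with Il17a and 23% of cells without it in WT Th17 library 1, and the former share was likewise higher in all 8. Cells with both Il17 and Il22 made up 1.18% to 3.28% of the cluster. In KO Th22, thinned cells with Il22 alone made up 6.28% and 8.11% and those with Il17 alone 5.75% and 7.92%. Without thinning the order turned, with Il22 alone in 8.27% and 11.1% and Il17 alone in 10.5% and 13.2%, so no order is read from them. The cluster was cut from these genes, so the overlap is a description.

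**Figure D3:**
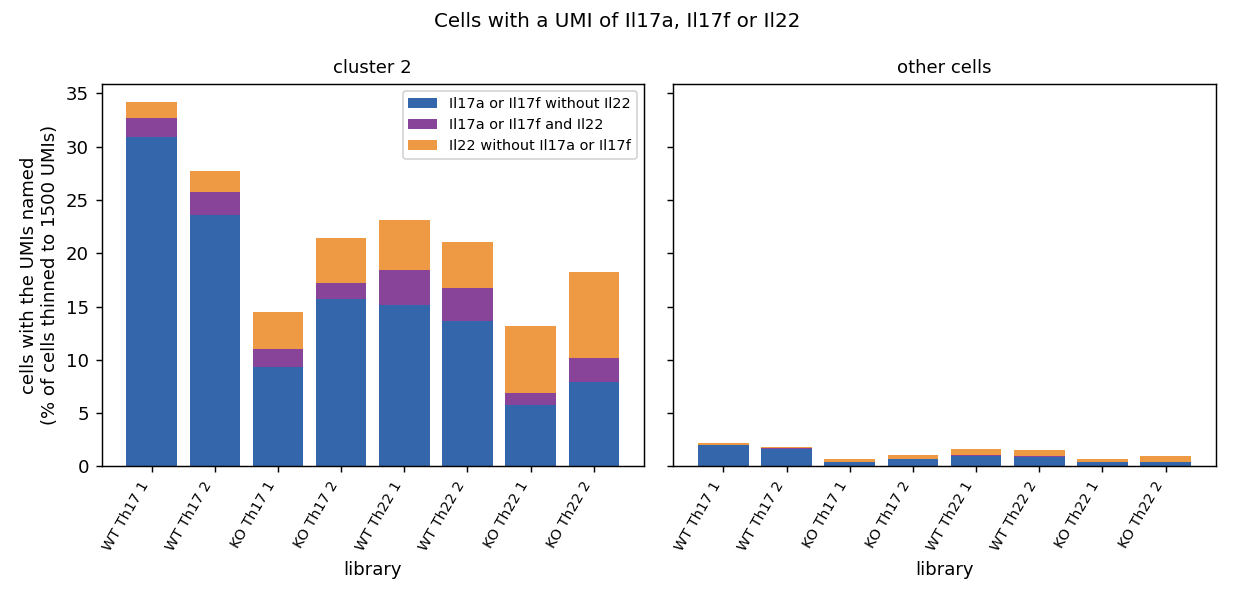
Percent of cells thinned to 1500 UMIs with a UMI of Il17a or Il17f alone (blue), of both Il17 and Il22 (purple) or of Il22 alone (orange), stacked, by library, in cluster 2 (left) and in all other cells (right). The bars of cluster 2 reach far above those of the other cells, and in KO Th22 libraries the blue and orange parts are of similar height.

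Cells of the cluster with no cytokine UMI still had higher levels of other leading genes than cells outside it. At matched depth, 54.7% to 85.5% of its cells had none of Il17a, Il17f, Il22 and Il24 (unthinned 41.7% to 73.9%). In the unthinned cells of this kind, the log2 ratio to other cells was 2.22 to 3.16 for Ermn, 2.69 to 3.54 for Ifitm3, 1.81 to 2.53 for Timp1 and 1.87 to 2.88 for Ebf1. All 26 other leading genes had a ratio above 0 in all 8 libraries. These genes also made the cluster, so this too is a description. The cytokine UMIs themselves were concentrated: the 10% of cells with most Il17f UMIs held 56.3% to 95.8% of them by library, and single cells held up to 71 UMIs of Il17a and up to 55 of Il22.

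KO and WT cells of cluster 2 were compared over both cultures, with each library's summed counts as 1 sample. Th17 and Th22 libraries of the same genotype and number thus count separately. Their deviations from the group mean correlated, at 0.556 in KO and 0.375 in WT, so they may not be independent. Gpr65, the targeted gene, lies on the plus strand of chromosome 12, 98268635 to 98276644 (ENSMUSG00000021886). Gpr65 read 157 and 137 CPM in WT Th17, 1.41 and 1.88 in KO Th17, 119 and 89.1 in WT Th22, and 2.20 and 1.70 in KO Th22. It was near 0 in all 4 KO libraries and did not overlap with WT (log2 fold change -6.06 ± 0.18, adjusted p = 9.89e-12, edgeR quasi-likelihood test with Benjamini-Hochberg adjustment). In WT cells its level was higher in the cluster than outside, where it read 60.2, 63.7, 46.7 and 44.6 CPM. Gpr4, a related proton-sensing receptor, had 0 UMIs in every library of the cluster.

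Besides Gpr65, the KO cells had more RNA of 9 amino acid response genes, of Nkg7 and of Cd74, and less of the leukotriene receptor genes Ltb4r1 and Cysltr1 and of 6 genes of naive and memory T cells. Of these, Gpr65, Nkg7, Nupr1 and Cth were among the genes that passed under all alternatives planned, given below. Of 10509 genes tested, 252 passed at adjusted p under 0.05 (called here), 2.4%, with 120 higher in KO (1.14%) and 132 lower (1.26%). Among the 252 were 7 leading genes, whose change is not reported as a result, and 18 gene models without a name.

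Nkg7 read 15.4 and 19 CPM in WT Th17, 44.8 and 68.2 in KO Th17, 8.71 and 10 in WT Th22, and 27.4 and 53.1 in KO Th22. Nkg7, a granule protein of cytotoxic lymphocytes, rose in KO by 1.91 ± 0.22, adjusted p = 0.00113 (log2 fold change ± SE, edgeR). Nupr1 stood at 67.8 and 85.7 CPM in WT Th17 against 227 and 168 in KO Th17, and at 48.9 and 60.7 in WT Th22 against 175 and 125 in KO Th22. Nupr1, a stress-induced chromatin regulator, rose by 1.42 ± 0.13, adjusted p = 9.72e-05 (edgeR). Cth read 12.5 and 13.6 CPM in WT Th17, 20.9 and 24.4 in KO Th17, 5.76 and 4.87 in WT Th22, and 16.4 and 22.5 in KO Th22. Cth, which makes cysteine, rose by 1.30 ± 0.20, adjusted p = 0.00453 (edgeR). All 4 KO libraries of these 3 genes lay above all 4 WT libraries, which the rule for naming genes, given below, required. The other large rises were those of Cox6a2, a subunit of cytochrome c oxidase (1.72), Nek6, a mitotic kinase (1.54), S100a6, a calcium-binding protein (1.33), Trat1, an adaptor of the T cell receptor (1.26), Cd74, the invariant chain (1.25), Bcl2a1b, a survival gene with close copies (1.14), and Lgals3, galectin-3 (1.09).

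Falls in KO were led by Gpr65. The levels of Ecm1 were 144 and 138 CPM in WT Th17, 169.9 and 174 in WT Th22, 34.4 and 60.6 in KO Th17, and 67.9 and 72.7 in KO Th22. Ecm1, an extracellular matrix protein, changed by -1.41 ± 0.13, adjusted p = 9.46e-05 (edgeR). Serpinb1a read 78 and 70.5 CPM in WT Th17, 24 and 24.1 in KO Th17, 90.7 and 84.2 in WT Th22, and 43.7 and 51.4 in KO Th22. Serpinb1a, a protease inhibitor, changed by -1.20 ± 0.14, adjusted p = 0.0002 (edgeR). Its WT and KO libraries did not overlap, which the naming rule required. Ltb4r1 (-1.12) and Cysltr1 (-1.08), receptors of leukotrienes, fell as well, and so did Lif, a cytokine of the IL-6 family (-1.07). Dgat1, the last enzyme of triacylglycerol synthesis (-1.01), Sdc4, a syndecan (-1.29), Tent5a, a poly(A) polymerase (-1.24), and Ctla2b, a protease inhibitor-like gene (-1.12), completed the 10.

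Genes of the amino acid response, which ATF4 drives when amino acids are short, were higher in KO: 9 of 21 tested members were called higher and 0 lower, with a median log2 fold change of 0.41 against -0.00127 for all genes tested. The rise was not particular to the cluster. In the test of the change inside against that outside, 1 of 22 members, Ddit3, was called. The list's median difference there was -0.00666, against -0.0236 for all genes. The called members were Nupr1, Cth, Asns (0.60), Psph (0.52), Phgdh, Psat1, Atf5, Sesn2 and Slc3a2. Asns read 100.0 and 103 CPM in WT Th17, 145 and 127 in KO Th17, 71.5 and 72.7 in WT Th22, and 128 and 118 in KO Th22. Asns makes asparagine, and Phgdh, Psat1 and Psph form the serine pathway. Genes of naive and memory T cells were lower: 6 of 15 were called lower and 0 higher, with a median of -0.32. Among them were Klf2 (-0.84), Tcf7 (-0.54), Satb1 (-0.46), Lef1 and Bcl2.

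Of 13 genes of the T cell receptor complex, 4 were called lower in KO, namely Cd3g (-0.45), Cd4 (-0.41), Trac (-0.34) and Cd3d (-0.34), and Lat was called higher. All 18 genes of sterol and lipid synthesis had a log2 fold change below 0, with a median of -0.29, and 1 of them, Scd2, was called. Of the core Th17 genes other than the leading ones, Hif1a (-0.56), Il6ra, the IL-6 receptor (-0.70), and Tmem176a (-1.20) fell and 0 of 16 rose. Among genes tied to pathogenic Th17 cells, Ccl3 (1.72), Ccl5 (1.09), Tbx21, the Th1 factor T-bet (1.39), and Lgals3 rose and Icos, a co-stimulatory receptor, fell (-0.85) of 15 tested outside the leading set. Il1rn, the IL-1 receptor antagonist, rose (1.02). Of 9 tested genes of regulatory T cells and inhibitory receptors, 2 fell, Ctla4, an inhibitory receptor (-0.67), and Tnfrsf18, the co-stimulatory receptor GITR (-0.50).

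Cytotoxic genes did not move one way. Of 12 Th1 and cytotoxic genes tested, Nkg7 and Tbx21 were called higher and Gzma, granzyme A, lower. Gzma had 36 and 51 UMIs in WT Th17 and 3 and 0 in KO Th17, and 17 and 52 in WT Th22 against 5 and 9 in KO Th22. Isg15, an interferon-induced ubiquitin-like protein, rose (1.12), as did 1 other of 19 interferon-response genes, Ifih1, while Ddx58 fell. Of 26 respiratory chain genes 2, Uqcrq and Atp5g1, were called higher and 0 lower, with a median of 0.08. Nr4a1, an early gene of T cell receptor signalling, fell (-0.65), 1 of 15 activation genes called. The levels of Cd74 were 11.4 and 13.5 CPM in WT Th17, 12.4 and 13 in WT Th22, 47.4 and 25.5 in KO Th17, and 30.8 and 18.9 in KO Th22. In both cultures Cd74 was higher in KO library 1 than in KO library 2, and it was the 1 called of 5 MHC class II genes tested. The summed level of that list was 114 to 123 CPM in WT Th17, 131 to 132 in KO Th17, 121 to 129 in WT Th22 and 115 to 128 in KO Th22, and the part of antigen-presenting cells in the change of Cd74 was not tested.

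Several fixed genes did not pass in edgeR's test. The log2 fold change was -0.19 ± 0.12, adjusted p = 0.446 for Rora, 0.12 ± 0.16, adjusted p = 0.757 for Ahr and 0.65 ± 0.66, adjusted p = 0.686 for Csf2. Summed levels of the NK and CD8 marker list, read beside Nkg7, Ccl5 and Tbx21, were 14.8 to 18.5 CPM in WT Th17, 15.3 to 20.6 in KO Th17, 11.9 to 16.5 in WT Th22 and 11.7 to 13.2 in KO Th22, so they overlapped between KO and WT. Those of the gamma-delta list were 17.9 to 19.9 in WT Th17, 27.9 to 34.4 in KO Th17, 27 to 36 in WT Th22 and 31.5 to 35.3 in KO Th22, higher in KO than in WT in Th17 and overlapping in Th22. Of its 10 measured members 8 averaged under 1 CPM, the others being Trdc and Maf, and Maf is also a core Th17 gene. Trdc alone, over both libraries of a group, read 1.19 CPM (13 UMIs) in WT Th17 and 1.51 CPM (11 UMIs) in KO Th17. The part of such cells in these changes was not tested.

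**Figure D4:**
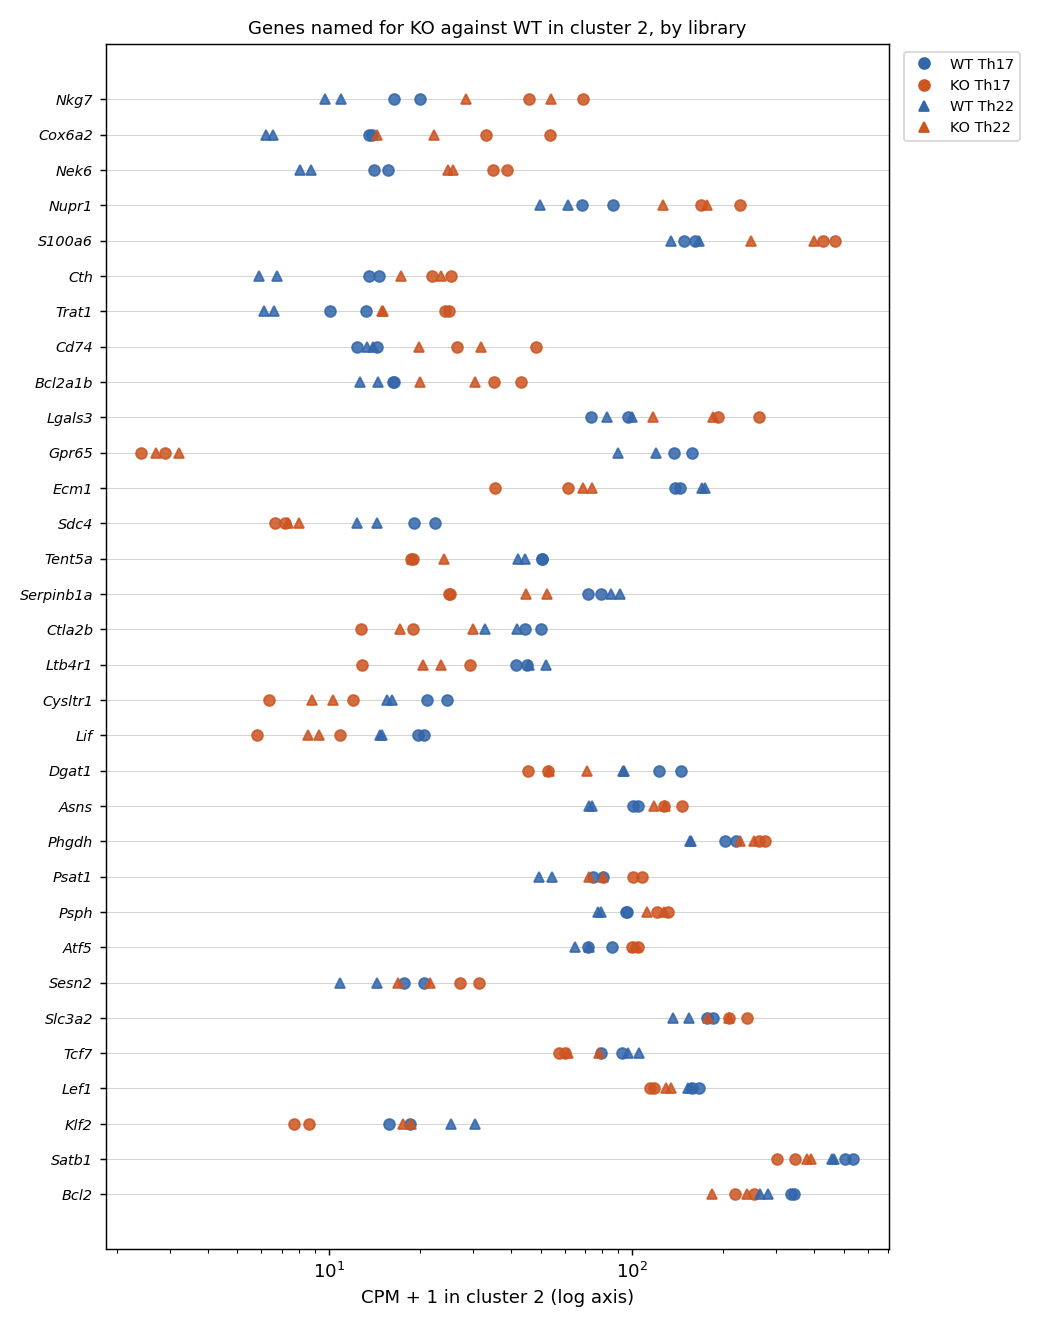
Level in cluster 2, as CPM + 1 on a log axis, of the 10 largest rises and 10 largest falls of KO against WT, followed by 7 called amino acid response genes and 5 called naive and memory genes, 1 point per library, with WT in blue, KO in orange, Th17 as circles and Th22 as triangles. Gpr65 shows the widest gap. For the first 20 genes no KO point lies among the WT points, which the rule for naming them required.

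Of the 53 genes outside the leading set that the rule named or a list held as called, 15 kept the call under all alternatives planned, among them Nkg7, Cox6a2, Nek6, Nupr1, Cth, Ecm1, Serpinb1a and Icos. The 15 did not include Cd74, Ltb4r1, Cysltr1, any naive and memory gene, or an amino acid response gene other than Nupr1 and Cth. The number called ran from 90 without WT Th22 replicate 2 to 458 without KO Th22 replicate 1, with 101, 143, 131 and 156 without WT Th17 replicates 1 and 2, KO Th17 replicate 1 and WT Th22 replicate 1, and was 33 when the Th17 and Th22 libraries of each genotype and number were summed.

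Within Th17 cells of the cluster, 75 genes were called between KO and WT (0.714% of those tested), 26 higher (0.247%) and 49 lower (0.466%). Within Th22 cells 26 were called (0.247%), 11 higher (0.105%) and 15 lower (0.143%). Gpr65 changed by -6.44 in Th17 and -5.73 in Th22. Nkg7, Cox6a2, Nek6, Nupr1 and Trat1 were called higher in both cultures: Nek6 rose by 1.39 ± 0.17, adjusted p = 0.00186 in Th17 and 1.71 ± 0.18, adjusted p = 0.000955 in Th22 (edgeR). Serpinb1a, Ecm1 and Tent5a were called lower in both, Serpinb1a with changes of -1.60 and -0.87. Plek, a protein kinase C substrate (1.56), S100a6 (1.55), Sdc4 (-1.71) and Dgat1 (-1.45) were called in Th17. Cth (1.88), Asns (0.77), Phgdh (0.62), Plac8 (-1.45) and Pdcd4 (-1.06) were called in Th22. Under all alternatives planned, 4 of 28 named calls in Th17 were kept (Gpr65, Serpinb1a, Tent5a and Dgat1) and 1 of 19 in Th22 (Gpr65). The Th17 count was 12 without WT Th17 replicate 1, 9 without WT Th17 replicate 2, 23 or 28 when KO Th17 library 1 or 2 was dropped, 39 or 41 when WT Th22 library 1 or 2 was, and 174 without either KO Th22 library. The Th22 count was 2 without WT Th22 replicate 1, 6 without WT Th22 replicate 2, 77 without KO Th22 replicate 1 and 44 without KO Th22 replicate 2.

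The change between KO and WT itself differed between cultures for 1 of 10509 genes (0.00952%), a leading gene, by edgeR, while 528 had an unadjusted p under 0.05 and DESeq2 called 7. Without WT Th17 replicate 1 edgeR called 4. No difference between the cultures is therefore given for the genes above, and a call in 1 culture alone does not show that they differ.

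Targets of AHR had more RNA in Th22 than in Th17 cells of the cluster. Of 10509 genes, 237 were called (2.26%), 127 higher in Th22 (1.21%) and 110 lower (1.05%), over both genotypes, 10 of them leading genes. Cyp1a1, the classical AHR target, had 1 and 1 UMIs in the WT Th17 libraries, 0 and 0 in KO Th17, 85 and 142 in WT Th22, and 49 and 48 in KO Th22. Cyp1b1 had 0 and 0 UMIs in WT Th17, 0 and 1 in KO Th17, 49 and 87 in WT Th22, and 31 and 23 in KO Th22. Tiparp read 23 and 24.9 CPM in WT Th17 against 59.3 and 60.8 in WT Th22, and 15.2 and 16.4 in KO Th17 against 60.4 and 40.4 in KO Th22. Tiparp, an AHR-induced ADP-ribosyltransferase, rose by 1.47 ± 0.14, adjusted p = 1.37e-05 (log2 fold change ± SE, edgeR). Asb2 read 32 and 27.1 CPM in WT Th17 against 68.3 and 76.1 in WT Th22, and 16.9 and 20.9 in KO Th17 against 74 and 62.5 in KO Th22. Asb2, of a ubiquitin ligase, rose by 1.54 ± 0.13, adjusted p = 8.75e-06 (edgeR), and Ahrr, the AHR repressor, was called higher too. Without the leading gene Il22, 5 of 6 AHR targets tested were called higher and 0 lower; their median is not given because Cyp1a1 and Cyp1b1 were at 3 UMIs or fewer in all Th17 libraries, where a fitted fold has no firm size.

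Pltp read 2.32 and 2.76 CPM in WT Th17 against 19.8 and 22.2 in WT Th22, and 3.95 and 3.49 in KO Th17 against 17.1 and 17.9 in KO Th22. Pltp, the phospholipid transfer protein, had the largest rise by the naming rule, 2.67 ± 0.19, adjusted p = 1.26e-06 (edgeR). Its Th22 and Th17 libraries did not overlap, which that rule required. Other large rises were those of Cldnd1 (1.30), Dkkl1 (1.22), Cpox, of heme synthesis (1.21), Rasgrp4, a Ras activator (1.15), Hic1, a repressor (0.95), Rcc1l (0.95) and the interferon-inducible Ifi27l2a (0.94). Ccl5 read 11.8 and 16.2 CPM in WT Th17 against 3.37 and 2.57 in WT Th22, and 24 and 43.2 in KO Th17 against 3.42 and 5.31 in KO Th22. Ccl5, a chemokine, fell, with a change of -2.59 ± 0.25, adjusted p = 7.71e-05 (edgeR). Il1rn read 9.27 and 6.91 CPM in WT Th17 against 2.81 and 1.76 in WT Th22, and 16.4 and 15.8 in KO Th17 against 4.40 and 4.89 in KO Th22. Il1rn changed by -1.80 ± 0.19, adjusted p = 8.01e-05 (edgeR). Pdgfb, a growth factor (-1.27), Zbtb32, a repressor (-1.22), Anxa3 (-1.15), Pik3ap1 (-1.03), Irf8 (-0.99), the integrin gene Itga3 (-0.98), Ramp1 (-0.96), Serpinb5 (-0.95) and Dusp6, an ERK phosphatase (-0.94), were the other falls named.

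The amino acid response genes were lower in Th22: 5 of 21 were called lower and 0 higher, and all 21 had a log2 fold change below 0, with a median of -0.32 against -0.00111 for all genes tested. They were Psat1 (-0.52), Chac1 (-1.11), Trib3 (-0.59), Sesn2 (-0.63) and Slc7a5. The comparison of KO with WT and that of Th22 with Th17 use the same 8 libraries, and the values are set side by side only. Of 13 T cell receptor genes, 5 were called higher in Th22, namely Cd3g (0.61), Cd28 (0.54), Trbc2 (0.45), Cd3d (0.43) and Trbc1, the last a near-identical copy of Trbc2. Cd3g read 493 and 531 CPM in WT Th17 against 714 and 783 in WT Th22, and 330.1 and 378 in KO Th17 against 539 and 596 in KO Th22. Of 19 interferon-response genes 4 were called higher, among them Gbp2 (0.89) and Zbp1 (0.71). Ifitm6, the member of its family outside the leading genes, had 2 and 4 UMIs in WT Th17 and 39 and 37 in WT Th22, and 1 and 1 in KO Th17 and 3 and 19 in KO Th22. Klf2 rose (0.93). Ahr (0.02) and Il23r (-0.02) were not called.

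**Figure D5:**
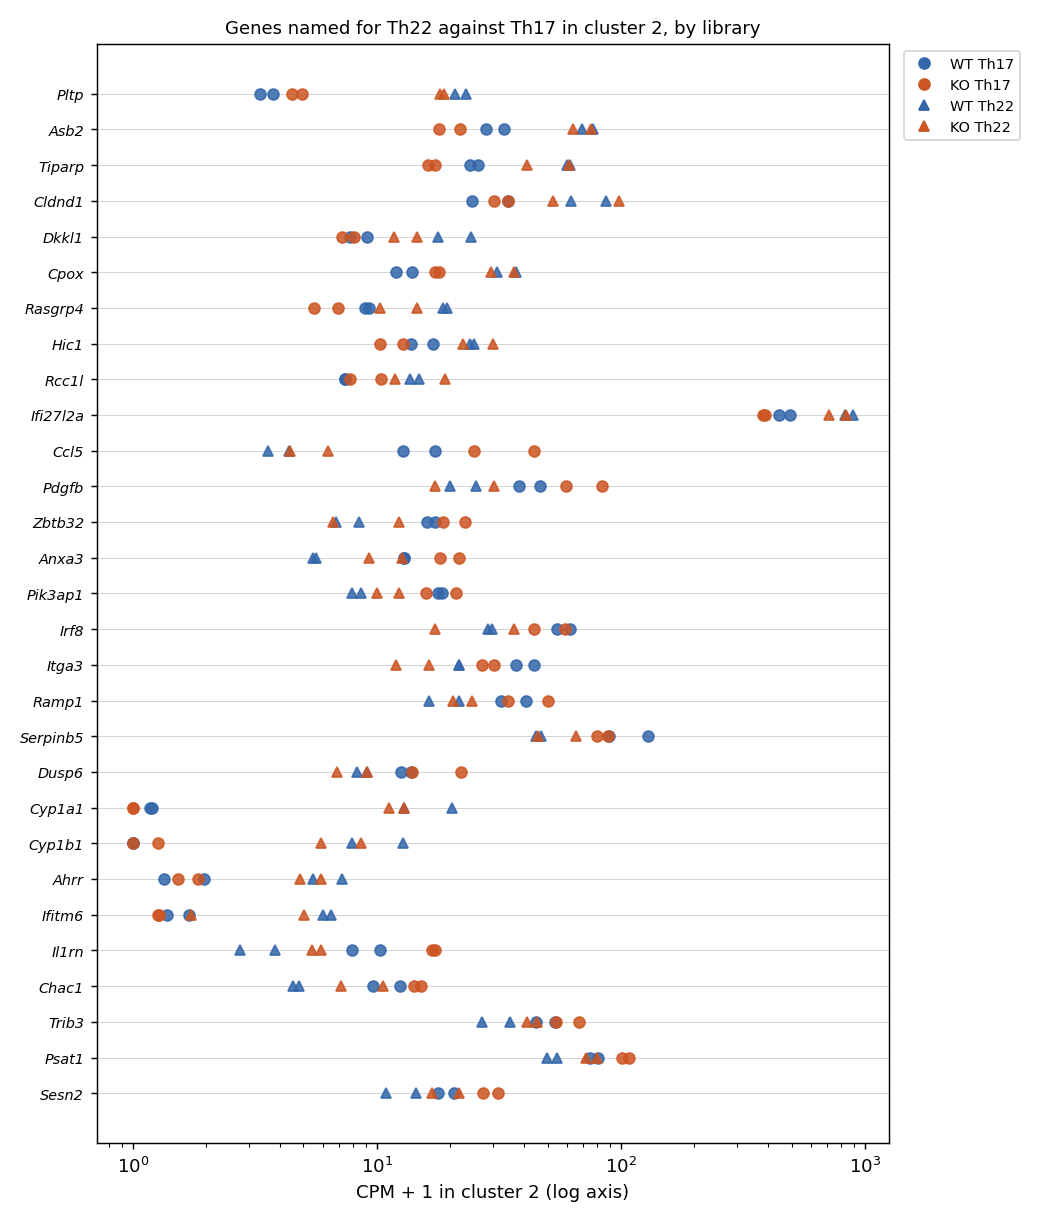
Level in cluster 2, as CPM + 1 on a log axis, of the 10 largest rises and 10 largest falls of Th22 against Th17, followed by other called genes named in the text, 1 point per library, with WT in blue, KO in orange, Th17 as circles and Th22 as triangles. Cyp1a1 and Cyp1b1 lie near the left edge in Th17 and apart from it in Th22.

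Of 51 such named genes, 25 kept the call under all alternatives planned, among them Pltp, Asb2, Tiparp, Cyp1a1, Cyp1b1, Ccl5, Il1rn, Klf2 and Gbp2. The number called fell to 85 without WT Th22 replicate 2, 103 without WT Th17 replicate 1, 142 without WT Th17 replicate 2 and 119 without WT Th22 replicate 1. Within WT, 60 genes were called (0.571%), 35 higher in Th22 (0.333%) and 25 lower (0.238%), and within KO 45 (0.428%), 23 higher (0.219%) and 22 lower (0.209%). Pltp rose by 3.04 in WT and 2.22 in KO, and Asb2 by 1.30 and 1.84. Odc1, of polyamine synthesis (-1.04), Cd274, PD-L1 (-1.11), and Chac1 (-1.43) were called lower in WT. Abcb1b, a drug efflux pump (-1.22), Plek (-1.33) and Pdgfb (-1.64) were called lower in KO, and Klf2 (1.25) and Ctla4 (0.79) higher. Of the named calls, 3 of 29 in WT (Pltp, Cyp1a1 and Cyp1b1) and 2 of 26 in KO (Asb2 and Cyp1a1) were kept under all alternatives planned. The count in WT was 21 or 11 when WT Th17 library 1 or 2 was dropped, 16 or 8 for WT Th22 library 1 or 2, and 176 or 179 for KO Th22 library 1 or 2. That in KO was 29 when WT Th17 library 2 was dropped, 28 or 26 for WT Th22 library 1 or 2, 17 or 21 for KO Th17 library 1 or 2, and 72 or 94 for KO Th22 library 1 or 2.

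Whether KO changed genes by a different amount inside the cluster than outside was tested in 1 model over both sums of each library. The difference was called for 105 of 12797 genes (0.821%), 28 above 0 (0.219%) and 77 below (0.602%), 7 of them leading genes. Serpinb1a read 108 and 100.0 CPM in WT Th17 and 48 and 52.3 in KO Th17 outside the cluster, beside the values inside it given above, and its change inside differed by -0.52 ± 0.07, adjusted p = 2e-07 (log2 difference ± SE, edgeR). S100a6 read 148 and 161 CPM in WT Th17, 425 and 466 in KO Th17, 166 and 134 in WT Th22, and 246 and 397 in KO Th22. Outside the cluster it read 121, 128, 242, 289, 131, 124, 151 and 244 in the same order, and its change was higher inside by 0.47 ± 0.05, adjusted p = 3.21e-14 (edgeR). Tnfrsf9, the co-stimulatory receptor 4-1BB (-0.52), Tnfrsf18 (-0.31), Tnfrsf4 (-0.20), Ctla2b (-0.72), Ly6c1 (-0.74) and Ly6g (-0.99) had a lower change inside, and S1pr1, the receptor for egress from lymph nodes (0.68), Ninj1 (0.56), Rad51ap1 (0.77) and Ccnb2, a mitotic cyclin (0.50), a higher one.

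Of 20 glycolysis and hypoxia genes 4 had a lower change inside the cluster, namely Gpi1, Eno1, Pkm and Bnip3, with a median difference of -0.12 over the list and -0.02 over all genes tested. The levels of Pkm were 888 and 693 CPM in WT Th17, 756 and 590.1 in WT Th22, 533 and 1068 in KO Th17, and 552 and 1138 in KO Th22. In both cultures Pkm, pyruvate kinase, was higher in KO library 2 than in KO library 1, inside and outside the cluster, where it read 476 and 1028 in KO Th17. All 20 G2/M genes had a difference above 0, of which Ccnb2 was called. Thinning cells to 1500 UMIs left 54 genes, and leaving out WT Th22 replicate 2 likewise 54, WT Th17 replicate 1 60 and KO Th22 replicate 2 65. The makeup of the other cells was not held fixed in this comparison.

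The change from Th17 to Th22 differed between the cluster and the other cells for 151 genes (1.18%), 90 above 0 (0.703%) and 61 below (0.477%), with 0 leading genes among them. Gbp2 read 68.3 and 78.1 CPM in WT Th17 against 98 and 127 in WT Th22, and 47.4 and 50.4 in KO Th17 against 114 and 109 in KO Th22 inside the cluster, and outside it 115 and 130.1 against 117 and 148, and 82.2 and 106 against 139 and 138. Gbp2, an interferon-induced GTPase, had a higher change inside by 0.56 ± 0.06, adjusted p = 7.53e-12 (edgeR), and Gbp5 by 0.79. Rgs2, a regulator of G protein signalling, had 0.72 ± 0.12, adjusted p = 2.62e-05 (edgeR). Rgs2 read 16.8 and 28.7 CPM in WT Th17 against 12.8 and 13.5 in WT Th22, and 36.7 and 18.8 in KO Th17 against 41.5 and 22.3 in KO Th22, while outside the cluster it read 20.5 and 29 in WT Th17 against 9.60 and 9.01 in WT Th22. Of 16 genes of the cAMP response 4 had a higher change inside, namely Crem, Nr4a2, Fosl2 and Rgs2, and 0 a lower one, with a median difference of 0.24 against 0.00599 for all genes. Irf4 and Hif1a of the core Th17 list, Lag3, Tnfrsf4 and Tnfrsf18 also had a higher change inside. Cebpd (-0.52), Dusp6 (-0.63), Tfrc, the transferrin receptor (-0.33), and Vim, vimentin (-0.30), had a lower one. The count was 50 in thinned cells, 86 in cells with low cycle scores and 47 by DESeq2. Without WT Th22 replicate 1 it was 79, without WT Th22 replicate 2 80, without WT Th17 replicate 1 90 and without KO Th17 replicate 1 100.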

How the data were processed

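The deposited matrix holds the authors' counts of UMIs for 16649 genes in 104660 cells, and the deposited cell table gives library, cluster, S and G2/M scores and mitochondrial percent per cell. The submitters' processing notes name Cell Ranger 5.0.1, Seurat and mm10. The authors' clustering, scoring and doublet steps are not given in the sources used here. No deposited cell has more than 9999 UMIs. The cluster numbers and scores were used as deposited by the authors, and the deposited percent of mitochondrial UMIs only as a description.

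Cells with at least 500 genes were kept and their counts summed per library, for cluster 2 and for all other cells. Sums were scaled by TMM, filtered with edgeR's filterByExpr and tested with edgeR 4.0.16 (R 4.3.3), by the quasi-likelihood test with Benjamini-Hochberg adjustment. KO was compared with WT and Th22 with Th17 over all 8 libraries, with 4 groups in 1 fit. A model with library as a block compared differences inside the cluster with those outside. Doublets were not removed; the 8% of cells with most UMIs in each library were left out as an alternative. The tests were also run on simulated counts drawn separately for each library, without the correlation between libraries given above. Of genes changed 1.5-fold, 64.2% were called for KO against WT, 34.3% for KO against WT in Th17 and 31.3% for inside against outside. At 2-fold the shares were 97%, 83.6% and 94.0%, and of unchanged genes 0.128%, 0.119% and 0.087% were called.

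Text names the 10 largest rises and 10 largest falls by fold change that passed, had at least 10 CPM and did not overlap between sides, up to 4 members with the smallest p of each described list, and a fixed set of receptors, factors and cytokines. Other list members are named by their call alone. The 30 leading genes were excluded from tested results. UMI counts and levels of genes named for a low count or a library difference were chosen after their values were seen. The members and gene lists were chosen with earlier results of these data known. Alternatives were RLE factors, DESeq2 1.42.0, no low-count filter, thinned cells, all cells, low-cycle cells, a replicate block, median UMIs as a covariate, only the 4 libraries compared, and leaving out each library. Values of a few genes in these lists are not reported here.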

Additional observations from a re-analysis of the deposited data

Results flagged for a closer look

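Among 115 sets of values tested for a library far from the rest of its group, 8 had one, where chance gives about 1 in 20. Of the leading genes, the log2 ratio of Ermn to the other cells was 3.29 in KO Th22 library 1, with the next library at 3.0 and the lowest at 2.79. The ratio of Furin was 1.70 in the same library, below the next at 1.92. That of Il1r2 was 2.30 in KO Th22 library 2, above the next at 1.84. Tent5a read 23.0 CPM in KO Th22 library 1, against 18.0 and less in the other KO libraries. Tiparp read 40.4 CPM in KO Th22 library 2, against 59.3 and more in the other Th22 libraries. Serpinb5 read 64.5 CPM in KO Th22 library 1, with the next Th22 library at 46.2. Rcc1l read 9.39 CPM in KO Th17 library 2, with the next Th17 library at 6.77, and Dusp6 read 21.2 CPM there, with the next at 13.0.

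The change between KO and WT was tested for a difference between the cluster and the cells outside it, and 105 genes passed. The log2 differences above 0 that the naming rule gave were Rad51ap1 (0.77), S1pr1 (0.68), Ninj1 (0.56), Ccnb2 (0.50), S100a6 (0.47), Ncapd3 (0.41), Rabgap1l (0.36), Hist1h1b (0.33), Cdca8 (0.33) and Atp6v1d (0.31). Those below 0 were Ly6g (-0.99), Ly6c1 (-0.74), Ctla2b (-0.72), Dop1a (-0.64), Heatr1 (-0.57), Zeb2 (-0.56), Hsd17b7 (-0.55), Zfp467 (-0.54), Serpinb1a (-0.52) and Tnfrsf9 (-0.52). The change from Th17 to Th22 differed between the cluster and the outside cells for 151 genes. The named differences above 0 were Sema4f (0.85), Gbp5 (0.79), Armcx6 (0.79), Slc17a6 (0.75), Rgs2 (0.72), Gas2 (0.65), Gbp2 (0.56), Gja1 (0.51), Tg (0.50) and Bend4 (0.48), and those below 0 were Dusp6 (-0.63), Cox6a2 (-0.53), Cebpd (-0.52), Hist1h2ae (-0.42), Tfrc (-0.33), Pla2g12a (-0.32), Vim (-0.30), Slc1a5 (-0.30), Bola1 (-0.27) and Kcnq1ot1 (-0.27). Of these and the list members named beside them, 11 of 34 for KO against WT and 11 of 45 for Th22 against Th17 kept their call under all alternatives planned. Cycle scores and depth differ between the cluster and the other cells in every library, and their part in these differences was not tested beyond the thinned and low-cycle values given with the counts.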

How the results depend on the processing

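Counts of genes past the test depended on the libraries and the filter, while no gene named as called within the cluster changed sign under these alternatives. With every gene that had a count kept, so that more genes were tested, 591 genes were called for KO against WT, 470 for Th22 against Th17, 328 and 254 for KO against WT in Th17 and Th22 cells, 287 and 269 for Th22 against Th17 in WT and KO, and 70 for the interaction. DESeq2 called 51 for KO against WT in Th22, 7 for the interaction, and 38 and 47 for the differences between the cluster and the other cells in the genotype and culture effects. Thinned cells gave 139 for Th22 against Th17, 5 for the interaction, and 54 and 50 for those differences, and low-cycle cells gave 65 and 86. Median UMIs as a covariate gave 18 and 6 for KO against WT in Th17 and Th22 and 6 for Th22 against Th17 in KO. Fits on the 4 libraries compared gave 122 for KO against WT in Th17, 286 for Th22 against Th17 in WT and 15 in KO. Summing the Th17 and Th22 libraries of a genotype and number left 33 for KO against WT, with 2 samples a side. The cause of the other changes was not tested. Leaving out 1 library gave 90 to 458 for KO against WT, 85 to 280 for Th22 against Th17, 9 to 174 and 2 to 77 for KO against WT in Th17 and Th22, 8 to 179 and 17 to 94 for Th22 against Th17 in WT and KO, 1 to 4 for the interaction, and 54 to 114 and 79 to 199 for the differences from the other cells. In the same runs 45 to 49 genes were at least 2-fold higher in the cluster than outside it. Top2a, a G2/M gene whose Th22 change was lower inside the cluster, had a difference of 0.14 (edgeR adjusted p = 0.779) in low-cycle cells; the cause was not tested. Without thinning, the mean share of cells with Il17a was 10.3% rather than 6.62%, with Il17f 22.4% rather than 13.7%, with Il22 9.34% rather than 6.45%, with both Il17 genes 6.44% rather than 2.92% and with Il17 and Il22 4.18% rather than 2.11%; thinning lowers the depth of each cell.

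Libraries with the same number deviated together from their group means within a genotype, and in opposite directions between genotypes. A KO library thus tended to deviate with the WT libraries of the other number. The correlation of deviations was 0.556 between the KO groups and 0.375 between the WT groups, and -0.199 to -0.375 between KO and WT. The labels do not say whether such libraries share an animal or culture. If they do, p-values for KO against WT over both cultures would be too small. A replicate block left 193 genes for KO against WT, 209 for Th22 against Th17, 74 and 23 for KO against WT in Th17 and Th22, 43 and 34 for Th22 against Th17 in WT and KO, and 1 for the interaction. A block of genotype and number gave 720 for Th22 against Th17. The crossed pairing, added after seeing the data, gave 726 for KO against WT, 481 in Th17 and 447 in Th22. Depth limits genes near 0, such as Ifng and Il10, whose differences were not detectable at this depth.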
